A study of Mus musculus with 3 samples.

Results

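The comparison described here set 1 array of dorsal root ganglion neurons incubated with 1 mM melatonin against 1 array of neurons incubated with vehicle, 2 of the 3 arrays of the series, and the samples were taken by their treatment labels. Both cultures were primary neurons from C57BL/6 mice aged 5 to 9 days, kept for 5 days in culture and then exposed for 24 h. The vehicle was normal saline with 1% ethanol, the labels give no solvent for the melatonin, and the number of animals behind each culture is not stated in them. Total RNA was hybridised in 1 colour to arrays that carry protein-coding and long non-coding transcripts. With 1 array per condition, every difference below is a difference between 2 arrays that has no replicate check and no p-value.

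Melatonin is the indole hormone of the pineal gland. It acts on a pair of G-protein-coupled receptors, encoded by Mtnr1a and Mtnr1b, that couple mainly to inhibitory G proteins and lower cyclic AMP, and at high concentration it also scavenges radicals and enters cells. Dorsal root ganglion neurons are the primary sensory neurons whose axons carry pain, touch and position signals to the spinal cord, and cultures of them usually also hold Schwann cells, satellite glia and fibroblasts. The comparison asked which transcripts changed with melatonin, and the series design sets the threshold at a fold change of 2.

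The files pair 15 of the 60846 study probes with a RefSeq transcript, and results for named genes rest on those 15. They are genes of antigen presentation, the lysosome, iron uptake, the cytoskeleton, metabolism and the machinery of gene expression. None of the 27 markers of sensory neurons or of other cell types listed for this comparison was among the named probes, so the labelled cell type was not checked against markers. The melatonin receptor genes, the pain channels and the clock genes were likewise not among them, and 20 of the 27 gene lists had no named member.

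Relative to vehicle, B2m, which encodes the light chain that holds major histocompatibility complex class I at the cell surface, was 5.93-fold higher on the melatonin array. Gusb, which encodes beta-glucuronidase, an enzyme that breaks down glycosaminoglycans in lysosomes, was higher by 2.53-fold. Tfrc, which encodes the transferrin receptor that brings iron into cells, was 2.26-fold lower. These 3 passed 2-fold and the other 12 named genes did not, a share of 20% beside 11.2% of all 46504 measured probes, from which nothing particular to the named genes is read. In RNA from a whole culture, fewer cells of a type and less RNA per cell cannot be told apart. Of the measured probes, 6.09% passed 2-fold upwards with melatonin and 5.14% downwards.

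The promoters of these 3 genes are shown because no other named gene passed 2-fold. Each window runs 5′ to 3′ on the strand of the gene, from 250 bases before to 50 after the transcription start in RefSeq (GRCm38.p6), and for Tfrc the more upstream of its 2 windows is given. The B2m window is chr2:122147437-122147736 on the plus strand, that of Gusb chr5:130003000-130003299 on the minus strand, and that of Tfrc chr16:32608646-32608945 on the plus strand. Capitals mark matches, on either strand, to the general promoter motifs TATAA and also CCAAT. They also mark TGACG, the core of sites bound by cyclic AMP response element binding proteins, AANNGAAA, the core of interferon regulatory factor sites, and TGACNNNGC, the core of antioxidant response elements.
B2m: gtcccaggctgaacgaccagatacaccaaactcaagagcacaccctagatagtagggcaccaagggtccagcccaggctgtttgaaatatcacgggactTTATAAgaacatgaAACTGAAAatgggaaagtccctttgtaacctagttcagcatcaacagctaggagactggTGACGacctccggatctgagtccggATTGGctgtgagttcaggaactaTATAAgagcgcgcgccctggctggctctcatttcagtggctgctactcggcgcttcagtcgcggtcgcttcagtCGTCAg
Gusb: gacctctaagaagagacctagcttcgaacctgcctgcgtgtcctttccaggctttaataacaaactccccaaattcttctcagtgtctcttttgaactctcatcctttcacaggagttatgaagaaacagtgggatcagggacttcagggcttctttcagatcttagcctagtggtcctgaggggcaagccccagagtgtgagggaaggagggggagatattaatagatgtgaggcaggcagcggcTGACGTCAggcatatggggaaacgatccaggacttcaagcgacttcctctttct
Tfrc: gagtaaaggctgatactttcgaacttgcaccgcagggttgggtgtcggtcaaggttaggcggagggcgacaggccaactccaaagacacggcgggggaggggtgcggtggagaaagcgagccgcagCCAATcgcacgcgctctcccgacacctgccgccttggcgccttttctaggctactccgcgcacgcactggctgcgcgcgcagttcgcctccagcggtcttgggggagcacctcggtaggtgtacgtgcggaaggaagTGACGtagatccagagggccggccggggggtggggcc

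The B2m window held TATAA on the plus strand from 30 bases before the start, a reversed CCAAT from 53 bases before, TGACG from 78 bases before, and AACTGAAA, a match to the interferon regulatory factor core, from 137 bases before. A further TATAA stood 150 bases before the start, overlapping its own reverse match, and a reversed TGACG lay 45 bases into the transcript. In the Gusb window TGACG and its reverse overlapped as TGACGTCA, which spans the start from 4 bases before it, and no other motif matched. The Tfrc window held CCAAT from 124 bases before the start and TGACG from base 14 of the transcript. Of all 32851 promoter windows in the table, 24.9% hold TATAA, 37.4% CCAAT, 20.8% TGACG, 23.9% AANNGAAA and 12.4% TGACNNNGC. A match describes the letters of the window and is not evidence of binding, and TGACNNNGC matched in none of the 3 windows.

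Each named gene was printed as 20 spots spread over the array, of which 14 to 20 remained after spots flagged as outliers were left out. A log2 ratio below is the mean over spots of the log2 signal on the melatonin array minus that on the vehicle array, after the 75th percentile of each array was subtracted. Its SD is over spots and is technical. The signals themselves are given in intensity units before that scaling, which moves every log2 ratio up by 0.07, since the 75th percentile lay at 477 units on the vehicle and 454 on the melatonin array.

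With vehicle the 19 B2m spots ran from 4977 to 5486 units with a median of 5289. With melatonin they ran from 28063 to 32003 with a median of 29768. The ranges were far apart, and all 19 spots were past 2-fold. The log2 ratio was 2.57 ± 0.05 (SD, 19 spots), with single spots between 2.46 and 2.66. Of all measured probes, 0.49% had a ratio as high. B2m is the only named member of the class I list, so the heavy chain genes and the peptide transporters were not analysed here.

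The 17 Gusb spots lay between 404 and 445 units on the vehicle array (median 416). They lay between 982 and 1079 units on the melatonin array (median 1012). The ranges did not overlap and all 17 spots were past 2-fold, with a log2 ratio of 1.34 ± 0.06. A ratio as high was found for 3.37% of measured probes. Gusb was the only named gene of the lysosome list.

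Tfrc stood on the other side of vehicle. Its 19 spots gave 49037 to 56288 units on the vehicle array, with a median of 52727, and 20914 to 24095 on the melatonin array, with a median of 22082. All 19 spots were past 2-fold, and the log2 ratio was -1.18 ± 0.05. A ratio as low was found for 3.59% of measured probes. Tfrc was the only named gene of the iron list. Its call depended on the scaling, with a log2 ratio of -0.94 after quantile normalization of both arrays, while B2m and Gusb stayed past 2-fold in all 10 alternative settings.

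**Figure D1:**
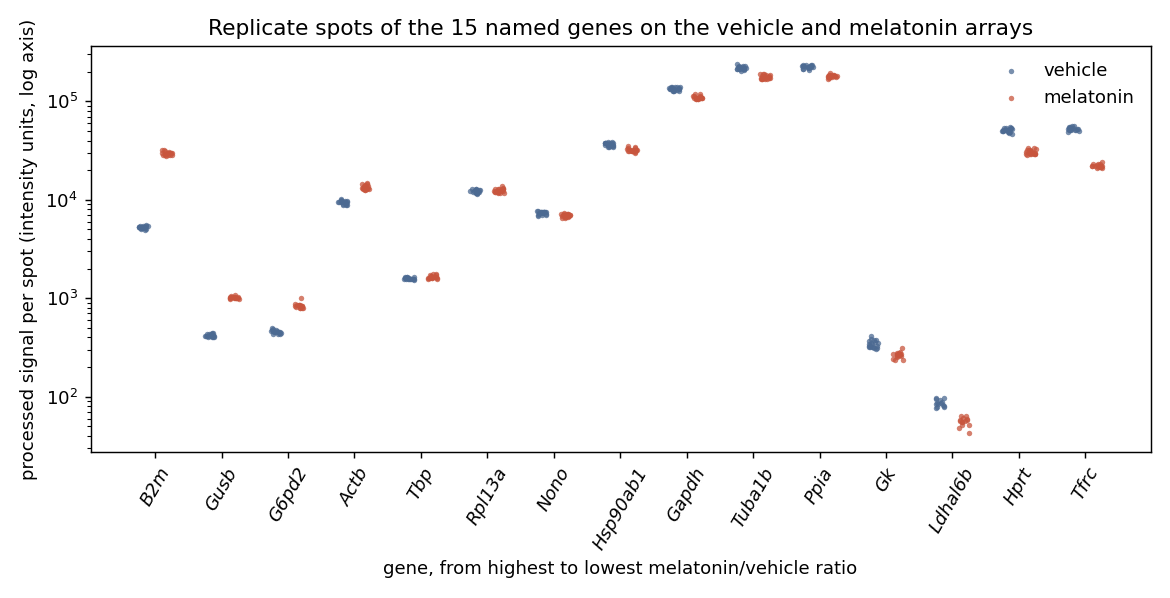
Processed signal of every spot of the 15 named genes on the vehicle array (blue) and the melatonin array (red), in intensity units on a log axis, with genes ordered by their ratio; each point is 1 spot. The spots of B2m, Gusb and Tfrc form separate clouds on the arrays, whereas those of Nono and Rpl13a overlap.

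Next below the 3 genes came G6pd2, a retrogene copy of the glucose-6-phosphate dehydrogenase that opens the pentose phosphate pathway. Its 17 spots gave 433 to 495 units on the vehicle array (median 453) and 793 to 1001 on the melatonin array (median 834). The log2 ratio was 0.94 ± 0.10, and 4 of the 17 spots were past 2-fold. The spots did not overlap between arrays, but the ratio lay within 1 SD over spots of the 2-fold line. Its probe may also read the parent gene, whose sequence is close.

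The named genes of the cytoskeleton differed in direction in the main scaling. Actb, which encodes beta-actin, had 19 spots between 8845 and 10151 units on the vehicle array (median 9524) and between 12499 and 14678 on the melatonin array (median 13268). Its spots did not overlap between arrays and its log2 ratio was 0.58 ± 0.07, short of 2-fold. Tuba1b, which encodes alpha-tubulin, ran from 202789 to 237523 units with vehicle (median 220166) and from 167355 to 189965 with melatonin (median 172993), at a log2 ratio of -0.24 ± 0.06. Its ratio was -0.02 once the shift of equally bright probes was subtracted. Neither of these named members of the cytoskeleton list passed 2-fold.

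Among enzymes of metabolism, Hprt, which salvages purine bases, and Ldhal6b had the lowest ratios in the main scaling, and which of them was lower depended on the scaling. The 20 Hprt spots gave 47071 to 54669 units on the vehicle array (median 51116) and 28846 to 33310 on the melatonin array (median 30049), with no overlap and a log2 ratio of -0.67 ± 0.08. Ldhal6b, a lactate dehydrogenase-like retrogene and the dimmest of the named probes, kept 14 of its spots. These lay between 77.2 and 97.8 units with vehicle (median 85.3) and between 42.4 and 63.5 with melatonin (median 56.9), at a log2 ratio of -0.57 ± 0.16. Over the settings its ratio ran from -0.61 to -0.28, the latter after normexp with the 75th percentile. Its probe may also read related genes. Gk, glycerol kinase, had medians of 340 and 267 units on the vehicle and melatonin arrays, with overlapping spots once scaled and a log2 ratio of -0.30 ± 0.13. Gapdh of glycolysis had medians of 134456 and 108903 units and a log2 ratio of -0.22 ± 0.05. All 20 of its spots were below vehicle in this scaling, but its log2 ratio was 0.00 once the shift of equally bright probes was subtracted.

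The genes of transcription, translation and protein folding had log2 ratios within 0.5 of 0. Tbp, which binds the TATA box, had medians of 1586 units with vehicle and 1635 with melatonin, and a log2 ratio of 0.12 ± 0.06 (18 spots). Rpl13a, a protein of the large ribosomal subunit, had medians of 12225 and 12339 units and a log2 ratio of 0.09 ± 0.05 (20 spots). Nono, a nuclear RNA-binding protein, was at -0.01 ± 0.06, with 7 spots above and 13 below 0. Hsp90ab1, a cytosolic chaperone, was at -0.11 ± 0.04, and Ppia, the prolyl isomerase cyclophilin A, at -0.25 ± 0.04, with all 19 spots below vehicle and no overlap between the arrays. For Tbp, Rpl13a, Nono and Hsp90ab1 the spots of the arrays overlapped. The signs of Nono and Hsp90ab1 changed with the scaling, over ranges of -0.05 to 0.24 and -0.15 to 0.12. The ratios of Rpl13a, Tbp and Ppia kept their signs, over 0.06 to 0.35, 0.09 to 0.26 and -0.28 to -0.03.

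Of the 15 genes, 6 had a log2 ratio above 0 and 9 below it, with a median of -0.11, where the median of all measured probes was -0.06. The spots of 10 genes did not overlap between the arrays. No share over all study probes can be set beside this count, since the others have 1 spot each. The spots of some control probes, such as GE_BrightCorner, did not overlap either, and those of other control probes did. Nothing particular to the named genes is therefore read from the count. Spot overlap measures the printing and scanning of an array and leaves out the spread between cultures and labellings. The housekeeping list had 9 of 14 members named, with a median log2 ratio of 0.09. Of these, 2 (B2m and Gusb) were past 2-fold higher, 1 (Tfrc) lower and 6 neither. They are the same genes counted above. Of all measured probes 6.09% passed 2-fold upwards and 5.14% downwards, and nothing particular to the list is read. Several genes of the housekeeping list are used as references for other measurements, and the log2 ratios of its named members spanned -1.18 to 2.57.

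**Figure D2:**
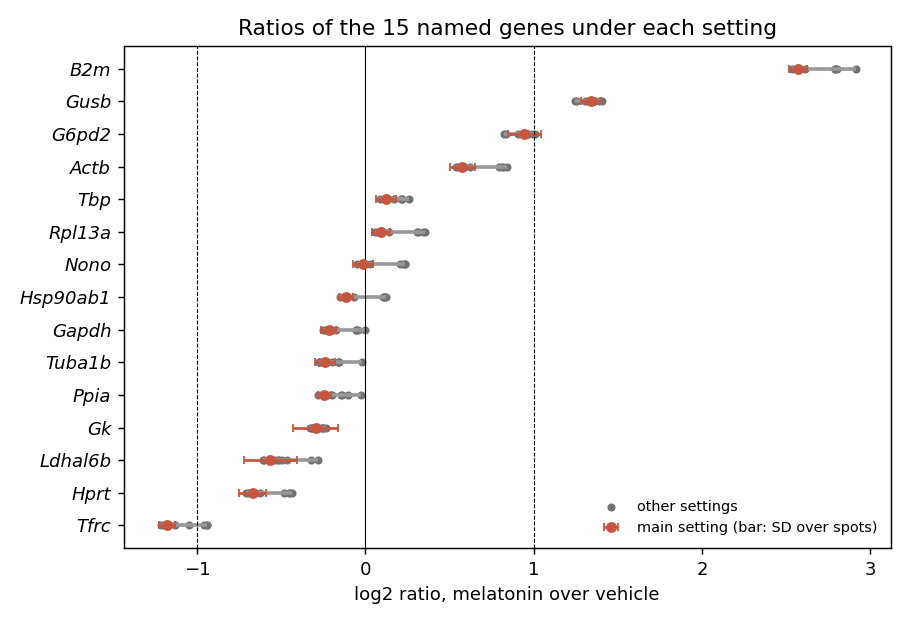
Log2 ratio of melatonin over vehicle for the 15 named genes; red points with bars are the main setting with the SD over spots, grey points the 10 alternative settings, and dashed lines mark 2-fold. B2m and Gusb stay beyond the line in every setting shown, Tfrc lies from -1.21 to -0.94 and G6pd2 from 0.82 to 1.01.

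The 8-M-PDOT array of the series shares the vehicle array. Its label gives another compound, an agonist of the receptor encoded by Mtnr1b, at a lower concentration and without melatonin. Its values are therefore only set beside these. Relative to that vehicle array, its log2 ratios were 2.86 for B2m, 0.66 for Gusb and 0.25 for Tfrc, against 2.57, 1.34 and -1.18 for melatonin. The difference between the compounds has no replicate check.

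Across the whole array, most probes differed little between melatonin and vehicle. The central 50% of log2 ratios lay between -0.36 and 0.26 and the central 90% between -1.01 and 1.11, and 67.4% of measured probes were within 0.5 of 0. The tail was slightly longer upwards, since the highest 1% began at 2.10 and the lowest 1% at -1.90. Of the probes past 2-fold, 2292 higher and 1997 lower ones lay under 4-fold, 425 and 319 between 4- and 8-fold, and 116 and 74 at or beyond 8-fold. A total of 367 of the higher and 284 of the lower probes were not well above background on 1 of the arrays. Where the dim signal was raised to the lowest signal well above background, the ratio is a lower bound. Detection itself differed for 3334 of the measured probes, of which 1924 were well above background with melatonin alone and 1410 with vehicle alone.

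All but the 15 named probes were printed as a single spot. For those, the scanner software's own error for each spot gave a median error of 0.21 for the log2 ratio, 0.45 among the dimmest 10% and 0.20 among the brightest 10%. Of 5220 single-spot probes past 2-fold, 5078 also differed by more than 2 of these errors, 2749 of them higher and 2329 lower. For most probes 2 errors lie below the log2 ratio of 1 that marks 2-fold. Passing 2-fold thus largely implied passing 2 errors, and the count is not a separate check. This error covers the reading of a spot and leaves out culture, extraction, labelling and hybridisation.

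**Figure D3:**
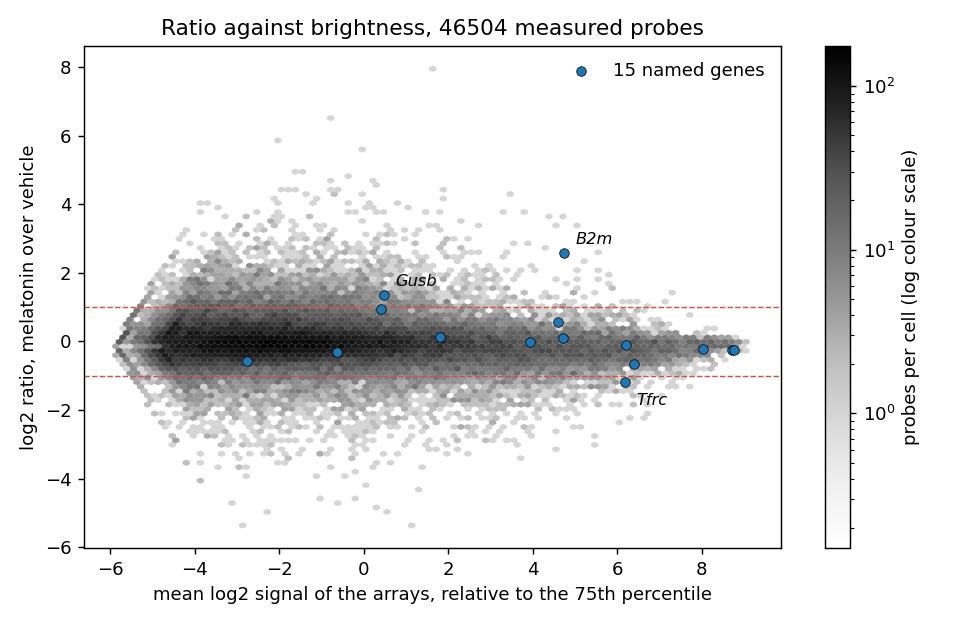
Log2 ratio of melatonin over vehicle against mean log2 signal relative to the 75th percentile for the 46504 measured probes, with darker cells holding more probes and dashed lines at 2-fold; blue points are the 15 named genes. B2m stands at 2.57, where 0.49% of measured probes have a ratio as high, and the cloud bends below 0 at the bright end, where the median is -0.22.

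The direction of the difference varied with brightness. Measured probes were put in 10 groups of equal size by their mean signal on both arrays. In groups 2 to 7, between 6.60% and 8.41% of probes passed 2-fold upwards with melatonin and between 3.81% and 5.33% downwards. The brightest group was the other way round, with 1.42% higher and 6.28% lower, and in group 9 it was 4.00% and 7.70%. The dimmest group did not lean upwards, with 3.89% higher and 4.06% lower, and group 8 had 6.62% and 5.94%. The median log2 ratio was -0.02 in the dimmest group and -0.22 in the brightest, the group that includes B2m, Tfrc and Hprt. Quantile normalization narrowed the contrast in the brightest group to 2.54% higher and 3.55% lower. With normexp background modelling and quantile normalization the dimmest group had no probe past 2-fold, and the brightest had 2.64% higher and 3.53% lower. Of the bright probes past 2-fold lower, Tfrc is the only one with a gene name in the files, so whether they share a function was not analysed here.

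**Figure D4:**
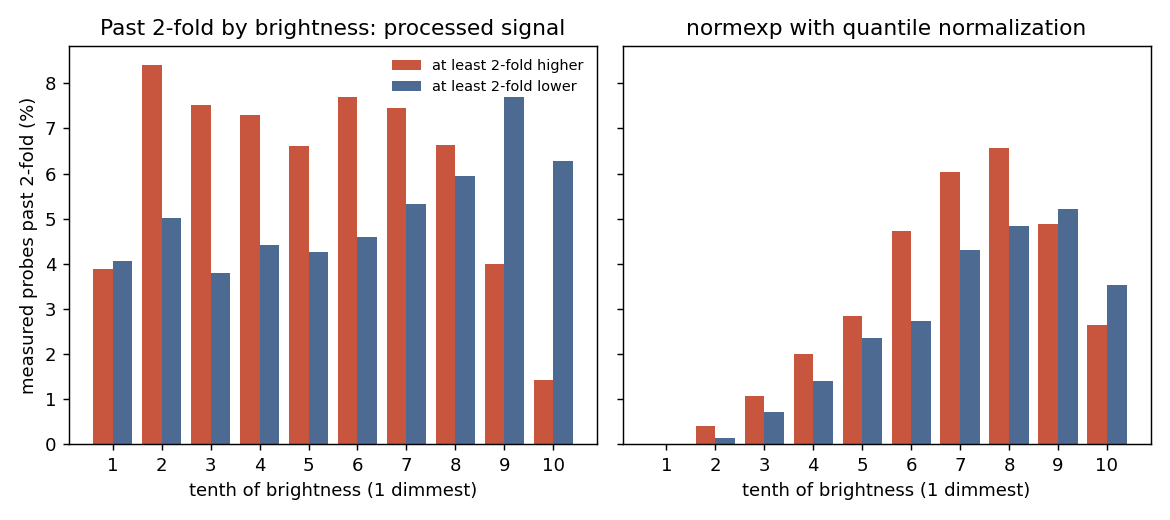
Percentage of measured probes at least 2-fold higher (red) or lower (blue) with melatonin in 10 groups of equal size by brightness, from the dimmest (1) to the brightest (10), for the processed signal (left) and after normexp with quantile normalization (right). In the left panel the brightest group has 1.42% higher and 6.28% lower, and in the right panel 2.64% and 3.53%.

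The probes with the most extreme ratios that were well above background on both arrays carry no gene name. ASMM10P002419 read 96.2 units on the vehicle array and 22600 on the melatonin array, a log2 ratio of 7.95. ASMM10P036113 read 27.8 and 2374 units, a log2 ratio of 6.49. At the other end, ASMM10P036258 read 6661 and 154 units (log2 ratio -5.37) and ASMM10P044565 read 3837 and 121 units (log2 ratio -4.91). Each is 1 spot, so the spots around it were read as well. The 14 to 17 neighbours within 2 rows and 2 columns had median log2 ratios of -0.30, -0.06, -0.03 and -0.13 around the 4 probes in the order given, and single neighbours lay between -1.24 and 0.93. After normexp the 4 ratios were 7.13, 4.87, -4.83 and -4.38.

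Probe families told apart by their names differed in how often they passed 2-fold. Of 45642 measured probes whose names start with ASMM, 11.4% passed 2-fold in either direction. Of 493 measured probes named for human lincRNAs 4.26% did (11 higher and 10 lower), of 301 named for mouse lincRNAs 3.65% (5 and 6), and of 53 named for mm9 lincRNA exons 1 probe, which was lower. Of the human and mouse lincRNA probes, 44.7% and 46.5% were measured, against 77.4% of the ASMM probes. The brightness of the families was not compared, and its part in these shares was not tested.

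Ratios also varied with position on the array. The array was divided into 32 blocks, 8 bands of rows by 4 bands of columns, and the median log2 ratio of probes well above background on both arrays ranged from -0.14 to 0.12 over them. The 3 blocks with a median above 0 lay side by side in the last column band, in row bands 1, 2 and 3. The share of probes past 2-fold was between 8.46% and 12.7% in every block. When the block median was subtracted from each spot, 2842 probes passed 2-fold upwards and 2361 downwards, and B2m, Gusb and Tfrc stood at 2.58, 1.36 and -1.17. The file headers record a multiplicative detrending fit for the melatonin array (root mean square 0.046) and none for the vehicle array.

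**Figure D5:**
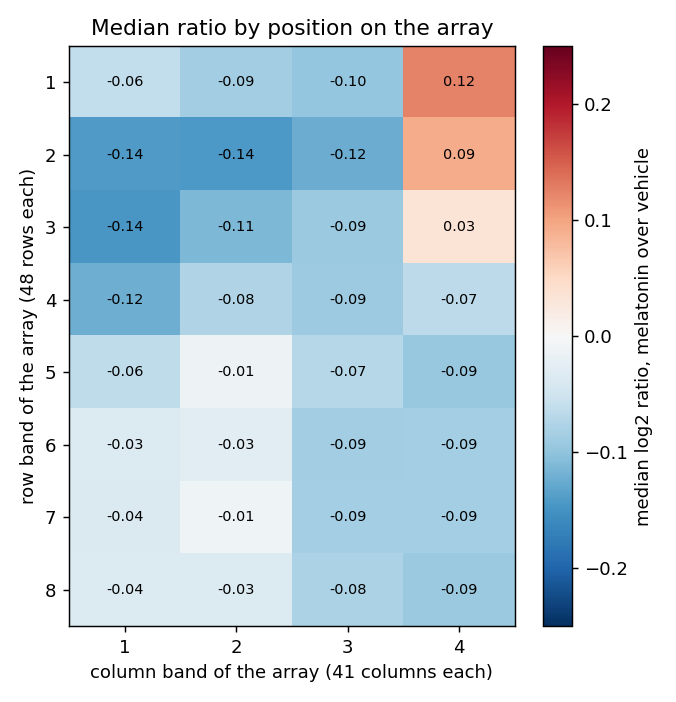
Median log2 ratio of melatonin over vehicle in 32 blocks of the array, for probes well above background on both arrays; red blocks are above 0 and blue blocks below. The 3 red blocks, at 0.12, 0.09 and 0.03, lie in the last column band.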

How the data were processed

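The deposited scanner files hold a processed intensity per spot, with its error and other columns that flag spots. Per the file headers and the submitters' processing notes, this intensity was background-subtracted and detrended in Agilent Feature Extraction (version 11.0.1.1). A multiplicative detrending fit is recorded for the melatonin array and none for the vehicle array. The arrays were entered by hand as positions 1 and 2 of 1 slide, a layout that was not read from the headers in the processing. With 1 array per condition, position and condition cannot be told apart in any layout. The deposited log2 value table served as an alternative, and how it was normalized is not stated in the sources used.

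From these, log2 processed signals were averaged over spots less the 75th percentile of the array. Left out were controls, the 15 probes named as negatives, and spots flagged as outliers on any of the 3 arrays, at a loss of 69 probes. A probe was measured if well above background on most spots of at least 1 of the 2 arrays (44580 probes on the vehicle and 45094 on the melatonin array). Dim values below a floor, the dimmest probe that was well above background on that array (19.3 and 15.7 units), were raised to it. No spot was saturated. Precision is limited by having so few arrays. The random variance model and paired t-test named in the series design cannot be run on 1 array per condition. Normexp used limma 3.58.1 in R 4.3.3 (offset 50) on median signals, since the files hold no mean signal. Other steps used Python 3.11.15. The counting step was run on simulated arrays with known changes, whose noise was only that of replicate spots of the named genes. This checks the counting itself and gives no error rate for the real arrays.

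All 15 accessions matched the reference table (GRCm38.p6), while the array grid names mm9, so no gene coordinates are given beyond the promoter windows, which held 13 of the 15 genes. All genes with a name are described, with at most 2 unnamed probes in each direction. The members and lists were chosen with earlier results of these data known.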

Additional observations from a re-analysis of the deposited data

Results flagged for a closer look

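A pair of control probes outside the comparison read higher on the melatonin array than on the vehicle array. E1A_r60_a107, a spike-in control probe, had medians of 38.7 units on the vehicle and 84.5 on the melatonin array over 35 spots, a log2 ratio of 1.22 ± 0.21 (SD over spots). ETG10_13482, an external control probe, was well above background on 9 of 9 spots with melatonin (median 28.5 units) and on 0 with vehicle. Its measured log2 ratio was 2.60, and against the lowest signal well above background on the vehicle array it was at least 1.60-fold higher. The other E1A probes well above background on both arrays, E1A_r60_3, E1A_r60_a22 and E1A_r60_n11, had log2 ratios of -0.12, -0.28 and -0.10. Of 68 control probes 33 were well above background on at least 1 array. By measured ratio, 2 of them were at least 2-fold higher and 1, Rat-PGK1_3, was at least 2-fold lower. Among all measured study probes, 6.09% passed 2-fold upwards and 5.14% downwards, so nothing particular to the control probes is read.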

How the results depend on the processing

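No paired analysis was possible because there is a single array on each side, and for the same reason no array could be left out. Of the counts (2833 higher, 2390 lower), these moved by over 1.5 times, given as higher and lower. Normexp with the 75th percentile gave 1371 and 1370, and normexp with quantile normalization 1450 and 1172. Without the filter on dim probes, and with dim values not raised either, there were 4380 and 3719. At a threshold of 1.5-fold there were 6000 and 6414, at 4-fold 541 and 393, and among probes brighter than the median 1746 higher. The cause was not tested, except that a stricter threshold or fewer probes lowers a count by construction. Normexp also adds an offset of 50 units to each signal, which by construction narrows the ratios of dim probes most. The SD of log2 ratios in the dimmest group was 0.596 in the main setting and 0.200 with normexp and the 75th percentile. In the brightest group it was 0.529 and 0.527. The part of the offset was not tested apart from the background modelling. With normexp and the 75th percentile, 0.02% of the dimmest group was past 2-fold higher and none lower, against 3.89% and 4.06% in the main setting. In the brightest group the shares were 1.42% and 6.30%, against 1.42% and 6.28%. Under both normexp settings, no probe past 2-fold passed it in the opposite direction. The other settings listed reuse the same scaled values with another threshold or filter. The one without a filter also leaves dim values unraised, which widens a ratio past 2-fold. Such a reversal could therefore not occur in them. After normexp with quantile normalization 1347 of the higher and 1170 of the lower probes remained past 2-fold. The housekeeping median of 0.09 was 0.22 after normexp with quantile normalization. Tfrc was at -0.94 after quantile normalization with and without normexp, and at -0.96 with the shift of equally bright probes subtracted, and stayed past 2-fold in the other 7 settings. G6pd2 passed 2-fold in 1 setting, the shift by brightness, at 1.01. The settings that subtract the medians of blocks and of brightness groups were chosen after seeing the data. Among the 150 values of named genes under other settings, 97 moved by less than 1 SD over spots and 53 by more. Signal over background limits the dim probes, where reading errors were largest.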

Other observations

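Pgk1, a glycolytic kinase, is carried by control probes, which the comparison leaves out. The mouse probes whose names end in 3 and 5 had log2 ratios of -0.45 ± 0.10 and -0.66 ± 0.13 (SD over 10 spots each), with medians of 50892 and 178 units on the vehicle array and 35149 and 106 on the melatonin array. The human and rat PGK1 probes were also lower, with log2 ratios from -1.06 to -0.41. The control probes of Gapdh, a neighbouring step of glycolysis, were between -0.29 and 0.01 over the 3 species. Mouse-GAPDH_3 was at -0.29 ± 0.05 and Mouse-GAPDH_5 at -0.21 ± 0.07, close to the -0.22 of the Gapdh study probe. The corner control spots (GE_BrightCorner, 14 spots) were at -0.80 ± 0.08.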
